A study of Mus musculus with 12 samples.

Results

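The genes described here are 10 members of the Notch pathway in the mouse lung, namely the receptors Notch1, Notch2, Notch3 and Notch4, the ligands Dll1, Dll4, Jag1 and Jag2, and the target genes Hey1 and Heyl. They were taken by name out of 31053 genes listed in the files, so that no measured value chose them. The data are single nucleus RNA sequencing of frozen lungs from 12 young C57BL/6J mice, 1 library per mouse, with 3 mice in each of 4 groups. Bleomycin, which injures the lung and is used as a model of pulmonary fibrosis, or phosphate buffered saline (PBS) was instilled into the trachea, and some days later the mice were given NVP-BHG712, an inhibitor of the receptor tyrosine kinase EphB4, or its vehicle daily by mouth. The groups are PBS_Vehicle, PBS_NVP-BHG712, Bleo_Vehicle and Bleo_NVP-BHG712. All mice were wild type and carried no transgene, all received a tracheal instillation, and the nuclei were sorted on a DNA dye alone with no gate for a cell type.

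Notch receptors and their ligands are both held in the cell membrane, so that signalling passes between touching cells. On binding, the receptor is cut, its intracellular part enters the nucleus, joins the DNA binding protein RBPJ and turns on target genes, among them the repressors of the Hey family. In blood vessels the pathway is known for setting arterial against venous identity, through NOTCH1, NOTCH4 and DLL4 in the endothelium, and for maintaining the mural cells that wrap the vessels, through NOTCH3. In the airway it is known for the choice between secretory and ciliated cells, with JAG1 and JAG2 as ligands and NOTCH2 as a main receptor.

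The 10 genes lie on 5 chromosomes of the mm10 (GRCm38) genome. Of the receptor genes, Notch1 lies at chr2:26457903-26516663 on the minus strand, Notch2 at chr3:98013527-98150361 on the plus strand, Notch3 at chr17:32120820-32166852 on the minus strand and Notch4 at chr17:34564268-34588503 on the plus strand. The receptors are long genes, with 31 to 34 exons in their longest transcript by exon count. Of the ligand genes, Dll1 lies at chr17:15367354-15376872, Jag1 at chr2:137081456-137116644 and Jag2 at chr12:112907819-112929776, all on the minus strand, and Dll4 at chr2:119325784-119335962 on the plus strand. The targets are Hey1 at chr3:8663359-8667256 on the minus strand and Heyl at chr4:123233556-123249875 on the plus strand.

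The promoters of 3 members whose levels set cell classes apart most clearly are shown as the 250 bases before the RefSeq start, 5′ to 3′ on the gene's strand (GRCm38.p6). Capitals mark the GC box GGGCGG or its reverse complement CCGCCC, counted with overlapping matches allowed. Notch3, the mural cell receptor, is read on the minus strand from chr17:32166891-32167140. Notch4, the endothelial receptor, is read on the plus strand from chr17:34564045-34564294, and Dll4, the arterial ligand, on the plus strand from chr2:119325534-119325783.
Notch3: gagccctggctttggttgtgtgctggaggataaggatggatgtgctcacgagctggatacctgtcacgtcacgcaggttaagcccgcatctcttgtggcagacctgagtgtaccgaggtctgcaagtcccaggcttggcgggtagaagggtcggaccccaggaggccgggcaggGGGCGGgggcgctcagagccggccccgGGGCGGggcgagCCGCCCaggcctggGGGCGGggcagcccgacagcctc
Notch4: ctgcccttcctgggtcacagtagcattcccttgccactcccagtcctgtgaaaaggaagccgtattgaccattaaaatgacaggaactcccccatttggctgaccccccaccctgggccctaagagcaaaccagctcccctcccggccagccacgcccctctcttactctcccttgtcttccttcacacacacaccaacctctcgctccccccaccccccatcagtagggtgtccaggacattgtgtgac
Dll4: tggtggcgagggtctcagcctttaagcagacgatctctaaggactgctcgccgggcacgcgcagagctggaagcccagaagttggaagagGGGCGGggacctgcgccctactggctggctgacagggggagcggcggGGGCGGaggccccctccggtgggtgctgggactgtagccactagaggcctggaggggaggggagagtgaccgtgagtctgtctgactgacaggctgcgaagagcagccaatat
The Notch3 window held 4 GC boxes, the Dll4 window 2 and the Notch4 window 0, against at least 1 in 32.7% of the 32851 mouse promoter windows of the same length. The Notch4 window held 4 CpG pairs, below the median of 6 over all windows, whereas Notch3 held 17 and Dll4 14. The core letters bound by RBPJ, TGGGAA on either strand, were in 21.6% of all windows and in none of the windows of the 8 members matched in the RefSeq table.

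The files held 49163 barcodes, of which 47319 passed the filters and 44611 remained after doublets were removed, with 1168 to 11867 nuclei and 3556084 to 61947690 deposited UMIs per library. The Bleo_Vehicle libraries stood apart, since their median mitochondrial share was 2.56%, 1.32% and 0.668% against at most 0.0496% in the other libraries, and they carry batch numbers 6, 6 and 7 where the other groups carry run numbers. In the deposited labels PBS_Vehicle has run numbers 1, 2 and 2, PBS_NVP-BHG712 has 1, 2 and 3, and Bleo_NVP-BHG712 has 4, 4 and 4, so bleomycin and the run cannot be told apart in any comparison across it. Run and inhibitor cannot be told apart either between Bleo_NVP-BHG712 and Bleo_Vehicle, and the interaction that uses both groups shares this limit. Libraries shared at most 0.845% of the smaller library's barcodes. The nuclei were grouped into 19 classes by clustering and named from marker lists with the 10 members and the other pathway genes left out, so each name is to be read as "arterial-like", "pericyte-like" and so on. The listed markers were highest in their own class for 9 of 9 pericyte, 8 of 9 smooth muscle, 7 of 9 arterial, 5 of 8 venous and 6 of 10 fibroblast markers, and 861 nuclei stayed unnamed. Levels are UMIs of the gene divided by all UMIs of the class in that library and scaled to 1000000 (CPM), given as mean ± SD over libraries with at least 20 nuclei of the class. Reads came from the 3′ ends of nuclear transcripts and were not scaled to gene length, so levels are compared between classes for 1 gene and not between genes.

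The 4 receptors were spread over different cells of the vessel wall and its surroundings. Notch1, a receptor of the endothelium, was highest in arterial endothelial nuclei at 238 ± 89.4 CPM (n = 10 libraries, lowest 73.9, median 249, highest 358). Lymphatic endothelial nuclei had 130.5 ± 40.8 CPM (n = 7), general capillary nuclei 128 ± 28.5 CPM (n = 12), venous endothelial nuclei 100.3 ± 33.4 CPM (n = 12) and aerocyte capillary nuclei 87.6 ± 27.1 CPM (n = 12) of Notch1. These neighbours overlapped in range, artery with lymphatic included, although artery was higher in 6 of the 6 libraries that held both. The lowest Notch1 level was that of alveolar type I nuclei, at 4.21 CPM.

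Notch4, a receptor largely restricted to endothelium, followed a similar order within the blood vessels and was low outside them. Its level was 102 ± 35.0 CPM (n = 10) in artery and 94.1 ± 35.3 CPM (n = 12) in general capillary nuclei, and artery was higher in 5 of 10 libraries, so the order of these 2 classes was not settled. Venous nuclei had 47.5 ± 25.2 CPM and aerocytes 40.0 ± 17.6 CPM of Notch4 (n = 12 each), and general capillary was above vein in 12 of 12 libraries. Beyond the blood vessels the highest Notch4 level was 22.3 ± 11.6 CPM, in dendritic nuclei (n = 8).

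Notch3, the receptor of mural cells, had the steepest drop between classes. In pericytes, the cells that wrap capillaries, it measured 1166 and 1416 CPM in PBS_Vehicle, 1389.5 and 1615 CPM in PBS_NVP-BHG712, 1235, 911 and 1372 CPM in Bleo_Vehicle and 1322 CPM in the 1 Bleo_NVP-BHG712 library with enough pericytes. All 8 libraries were thus high, with a mean of 1303 ± 207 CPM. In smooth muscle nuclei it was 1309.8 CPM in 1 PBS_NVP-BHG712 library and 687 and 858 CPM in 2 Bleo_Vehicle libraries, below the pericytes of the same library each time. Club cells, the secretory cells of the airway, came next at 77.5 ± 23.1 CPM (n = 12, lowest 48.7, highest 116), without overlap with smooth muscle above or with dendritic nuclei below, which had 19.7 ± 14.1 CPM (n = 8). Against fibroblasts, pericytes were higher in 8 of 8 libraries by a median log2 difference of 7.53.

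Notch2 was the receptor detected most widely. Its level was 518 ± 221 CPM in dendritic nuclei (n = 8), 436 ± 122 in club (n = 12), 419.6 ± 174 in B lymphocyte (n = 6), 406 ± 145 in interstitial macrophage or monocyte (n = 8), 352 ± 54.7 in alveolar macrophage (n = 12) and 316 ± 49.0 CPM in pericyte nuclei (n = 8), each overlapping the next. At the other end stood the blood endothelium, with 35.9 CPM in vein and a still lower mean in general capillary, so that the class with the lowest Notch2 level was among those with the highest Notch4 level. Lymphatic endothelium differed from the venous endothelium in this, with 215 ± 103 against 46.0 ± 20.6 CPM and a higher Notch2 level in 7 of 7 libraries.

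The 2 delta ligands divided the endothelium. Dll4 was highest in artery at 148 ± 36.4 CPM (n = 10, lowest 87.3, median 158, highest 204), and this range lay above that of general capillary nuclei, at 48.1 ± 14.5 CPM (n = 12, lowest 23.0, highest 74.2). Aerocytes had 33.6 ± 20.8 CPM (n = 12), lymphatic endothelium 26.9 ± 12.1 CPM (n = 7) and vein 5.51 ± 5.70 CPM (n = 12) of Dll4. Dll1 ran the other way, with 55.3 ± 21.2 CPM in vein (n = 12, lowest 15.9, highest 87.2), 24.0 ± 14.5 CPM in general capillary (n = 12) and 16.4 ± 22.0 CPM in artery (n = 10). Vein was above general capillary in 11 of 12 libraries for Dll1, with overlapping ranges, and no class outside the blood vessels had a mean over 5.24 CPM.

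The 2 jagged ligands shared their highest class, the ciliated cells of the airway, and differed elsewhere. Jag1 measured 292 ± 96.9 CPM in ciliated nuclei (n = 12, lowest 91.9, median 324, highest 408) against 114 ± 29.8 CPM in club nuclei, and was higher in the ciliated class in 12 of 12 libraries. It was also present in artery at 108 ± 46.2 (n = 10), vein at 90.1 ± 39.3 (n = 12) and alveolar type II nuclei at 77.4 ± 32.7 CPM (n = 12), and lowest in alveolar type I nuclei at 5.75 CPM. Jag2 measured 49.9 ± 25.2 CPM in ciliated, 39.4 ± 19.7 CPM in general capillary and 37.1 ± 18.4 CPM in aerocyte nuclei (n = 12 each), and these 3 classes overlapped. In club nuclei Jag2 was 5.43 ± 4.45 CPM, below ciliated in 12 of 12 libraries. Notch2 (436 against 159.6 CPM) and Notch3 (77.5 against 13.1 CPM) stood the other way round in the airway, higher in club than in ciliated nuclei in 12 of 12 libraries. Notch1 had no shared direction there (56.1 against 53.8 CPM, higher in club in 6 of 12), and Notch4 was low in both (1.85 against 6.04 CPM).

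The 2 targets had nearly separate homes. Hey1, a repressor linked to arterial fate, was 69.8 ± 32.0 CPM in artery (n = 10, lowest 34.0, median 60.1, highest 129) and 32.6 ± 16.3 CPM in general capillary nuclei (n = 12), and at most 4.51 CPM in the other classes. Heyl, the related gene of mural and mesenchymal cells, was 195, 82.9 and 72.8 CPM in the 3 libraries with enough smooth muscle nuclei. Pericytes had 84.6 ± 34.2 CPM (n = 8) and fibroblasts 48.2 ± 23.5 CPM (n = 12, lowest 28.2, highest 117) of Heyl, and no other class had a mean over 7.96 CPM. The Hhip Aspn Lgr5 cluster was uneven, at 23.1, 32.3 and 15.1 CPM in Bleo_Vehicle and at most 4.63 CPM in the other libraries with enough nuclei. Smooth muscle and pericyte overlapped, and with the UMIs of all libraries pooled pericytes came first for Heyl and general capillary came first for Notch4.

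**Figure D1:**
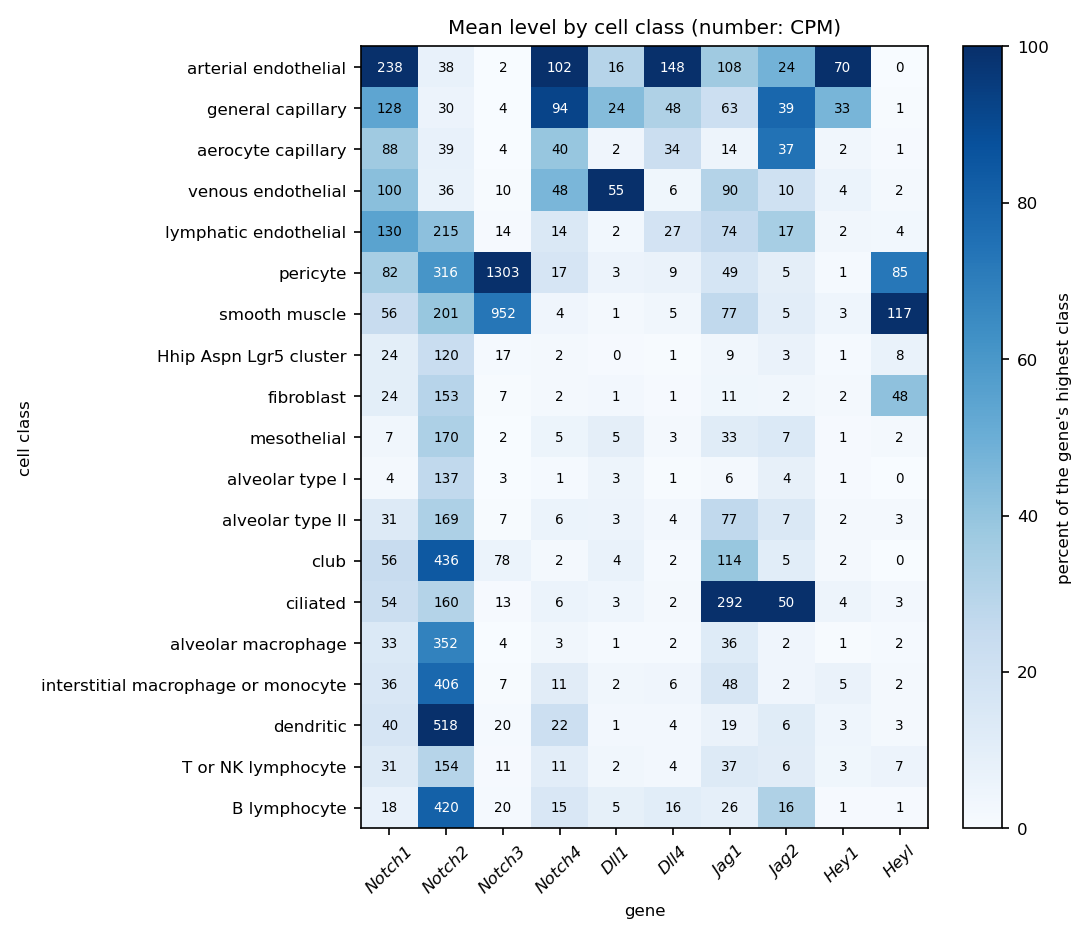
Mean CPM of each of the 10 genes (columns) in each of the 19 classes (rows), printed in the cell and shaded as percent of the gene's highest class. Notch1, Notch4, Dll4 and Hey1 are darkest in arterial endothelium, Notch3 and Heyl in pericytes and smooth muscle, and Jag1 and Jag2 in ciliated cells.

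The pattern of levels over the 19 classes placed some members close to each other. Pearson's r of the log2 levels across classes, which share their 12 libraries, was 0.863 for Notch4 with Dll4, 0.748 for Notch4 with Hey1, 0.741 for Dll4 with Hey1 and 0.727 for Notch3 with Heyl. Among 8704 other genes, the patterns most like that of Notch1 included Tmem44 (r = 0.837). For Notch2 the closest genes were Prpf38b (0.861) and Spg11 (0.846), for Notch3 Trpc6 (0.892) and Adcy8 (0.892), and for Notch4 Slfn5 (0.940) and BC028528 (0.939). For the ligands they were Acer2 (0.839) and Slc3a2 (0.836) with Dll1, Arl15 (0.931) and Cldn5 (0.889) with Dll4, Klhdc10 (0.821) and Wdr13 (0.790) with Jag1, and Scn3b (0.893) and Dock9 (0.819) with Jag2. Hey1 was closest to Cxcl12 (0.900) and Grik2 (0.861), and Heyl to Jph2 (0.942) and Ednra (0.927). Trpc6 and Cxcl12 were among the markers that named pericytes and artery.

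Artery and vein could be compared within 10 libraries, those with at least 20 nuclei of both, out of 756 arterial and 1232 venous nuclei in all. Replicate 1 of Bleo_Vehicle, with 5 arterial nuclei, and replicate 1 of Bleo_NVP-BHG712, with 13, were left out. The 2 classes differed in their naming markers, as in the connexin gene Gja5 (255 against 2.90 CPM), the ephrin ligand gene Efnb2 (1708 against 86.1 CPM), the venous transcription factor gene Nr2f2 (11.6 against 217 CPM) and Slc6a2 (2.96 against 1336 CPM). The listed arterial marker Vegfc went against its label, at 183 CPM in artery and 2261 CPM in vein. The listed venous marker Vcam1 did not separate them, at 111 CPM in artery and 104 CPM in vein. Because clustering made the classes, these comparisons are descriptions without a test.

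Dll4 and Hey1 separated artery from vein in each of the 10 libraries. For Dll4 the arterial level was 178, 119 and 204 CPM in PBS_Vehicle, 175, 87.3 and 158 CPM in PBS_NVP-BHG712, 170.3 and 111 CPM in Bleo_Vehicle and 158 and 123 CPM in Bleo_NVP-BHG712, while no venous value exceeded 14.5 CPM. For Hey1 the arterial level was 65.7, 59.4 and 34.0 CPM in PBS_Vehicle, 60.8, 48.5 and 78.8 CPM in PBS_NVP-BHG712, 46.5 and 52.6 CPM in Bleo_Vehicle and 129 and 123 CPM in Bleo_NVP-BHG712, and again no venous value exceeded 14.5 CPM. The median log2 difference of artery minus vein was 4.66 for Dll4 (range 3.07 to 7.68) and 4.77 for Hey1 (2.05 to 7.02), computed with 1 CPM added for zeros.

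Notch4 was also higher in artery in 10 of 10 libraries, but by less, with a median of 0.75 (0.45 to 2.38), and Notch1 in 9 of 10 with a median of 1.06 (-1.27 to 2.09). Dll1 was lower in artery in 9 of 10 libraries, with a median of -3.73 (-5.87 to 0.56), and that size rests on single libraries. The median was -2.16 without replicate 2 of any 1 of the 4 groups or replicate 3 of Bleo_NVP-BHG712, and -5.30 without replicate 1 or 3 of either PBS group or replicate 3 of Bleo_Vehicle. Arterial Dll1 was 0 CPM in replicate 2 of each group and in replicate 3 of Bleo_NVP-BHG712, where 3 UMIs equal 29.1 to 73.9 CPM. The log2 difference in those libraries depends on the 1 CPM added. Notch2 (6 of 10, median 0.17), Jag1 (5 of 10, median 0.20) and Jag2 (6 of 10, median 0.49) had no shared direction, and the medians of Notch2 and Jag1 changed sign under other processing. Notch3 and Heyl were low in both vessels, at most 9.70 and 2.02 CPM in artery and 17.5 and 11.4 CPM in vein. Venous Notch3 was 0 CPM in PBS_Vehicle. It was 17.5 and 10.6 CPM in replicates 2 and 3 of Bleo_Vehicle and 13.8 CPM in replicate 3 of Bleo_NVP-BHG712.

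**Figure D2:**
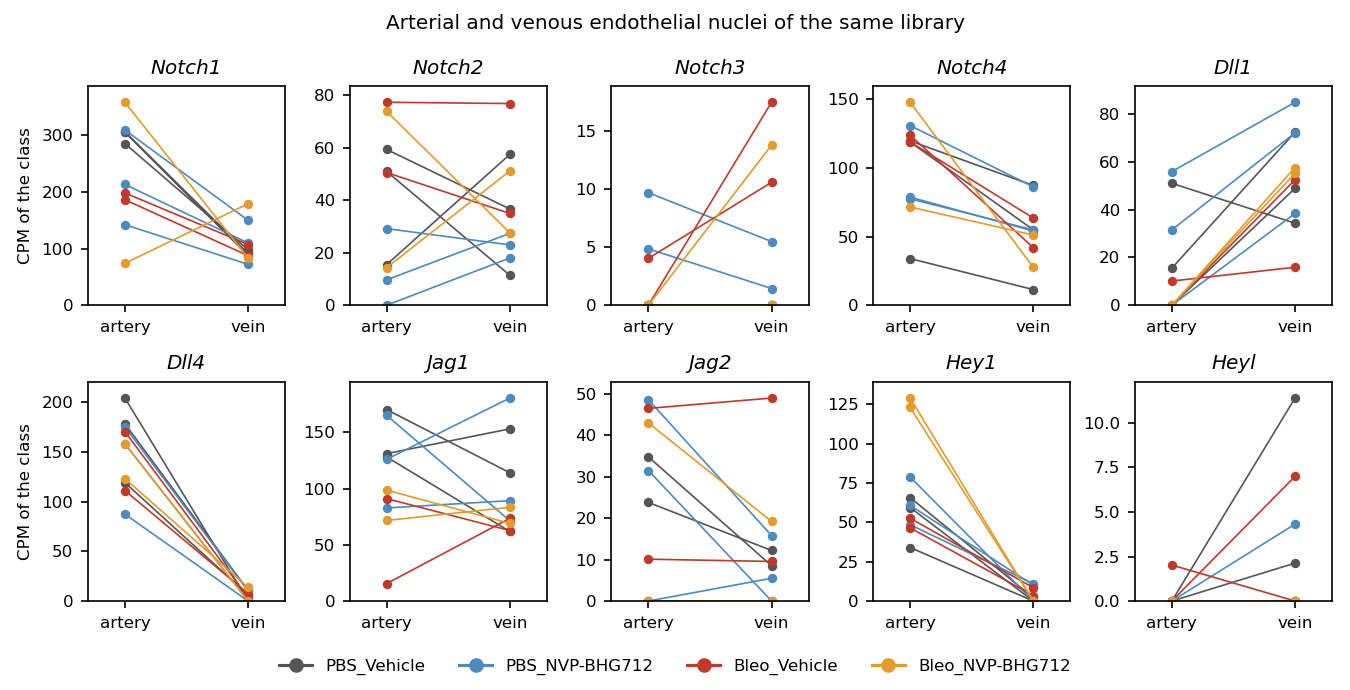
CPM of the 10 genes in arterial and venous nuclei, a line joining the 2 values of each of the 10 libraries, coloured by group. The Dll4 and Hey1 lines all fall steeply from artery to vein, the Notch4 lines all fall, the Dll1 lines rise in 9 of 10, and the Notch2 and Jag1 lines cross.

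Several members also differed between the 2 kinds of lung capillary. General capillary nuclei were above aerocytes, the large capillary cells of gas exchange, in 12 of 12 libraries for Notch1 (median log2 difference 0.41), Notch4 (1.16), Dll1 (2.81) and Jag1 (2.04), in 11 for Hey1 (3.53) and in 10 for Dll4 (0.54). For Jag1 the levels were 62.7 ± 9.49 against 13.9 ± 9.12 CPM, and for Hey1 32.6 ± 16.3 against 2.33 ± 2.81 CPM. Jag2 showed little separation, at 39.4 against 37.1 CPM and higher in 9 of 12.

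For the comparisons between groups, UMIs were summed per class and library and tested with edgeR's quasi-likelihood test, two-sided, with Benjamini-Hochberg adjustment over all genes tested in that fit. Values in these comparisons are CPM after TMM scaling, which differ somewhat from the levels above. All 10 members could be tested over all nuclei, called whole lung here, and 44 of 110 combinations of a member and 1 of 11 classes passed the filter on low counts. Pericytes and smooth muscle were too rare in some groups to be among the 11 classes. Over all nuclei, fewer cells of a type and less RNA per cell cannot be told apart. The comparisons below share groups, so their counts are not independent of each other.

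In the comparison of bleomycin with PBS under vehicle, no member passed an adjusted p of 0.05. The count was 0 of 10 in whole lung, where 2.44% of all genes passed, and 0 of 44 by class, where 3.51% of all gene and class combinations did. With the unadjusted p under 0.05, it was 1 of 10 in whole lung (all genes 18.6%) and 8 of 44 by class (all genes 15.7%), and the groups did not overlap in 10 of 44 (all genes 20.3%) and in 0 of 10 in whole lung. These shares are near those of all genes and are no result about the members. DESeq2 called 1 of the 44 (Jag1 in fibroblasts) and none of the 10.

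Of the 8, the values that were lower after bleomycin were in the airway. Notch2 in club nuclei measured 532, 558 and 546 CPM in PBS_Vehicle and 169, 309 and 413 CPM in Bleo_Vehicle, all below the PBS_Vehicle values, for a log2 difference of -0.75 ± 0.22 (± SE throughout; edgeR adjusted p = 0.0665). Jag1 in ciliated nuclei measured 322, 372 and 375 CPM against 124, 130.4 and 286 CPM, again without overlap (log2 change -0.86 ± 0.30, edgeR adjusted p = 0.147). Replicate 3 of Bleo_Vehicle, the only library of batch 7 and the deepest, was the one nearest to PBS_Vehicle for both genes. Without it the changes were -1.06 (edgeR adjusted p = 0.00957) for Notch2 in club and -1.44 (edgeR adjusted p = 0.000211) for Jag1 in ciliated nuclei. The summed level of the 8 alveolar type II markers in ciliated nuclei was 490.3 to 2485 CPM in Bleo_Vehicle against 237 to 437 CPM in PBS_Vehicle, and its part in the Jag1 values was not tested.

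Notch1 in the same club nuclei was 47.2, 48.4 and 66.6 CPM in PBS_Vehicle and 104, 81.6 and 82.4 CPM in Bleo_Vehicle, and the log2 change was 0.70 (edgeR adjusted p = 0.210). The 7 general capillary markers, summed in club nuclei, were at 114 to 245 CPM in PBS_Vehicle and 265 to 572 CPM in Bleo_Vehicle, and their part in the Notch1 values was not tested. Notch2 in alveolar type I nuclei (0.46, edgeR adjusted p = 0.181) and in aerocytes (0.72, edgeR adjusted p = 0.595) had higher values after bleomycin with an unadjusted p under 0.05.

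In fibroblasts 3 members had higher values. Jag1 measured 5.82, 8.04 and 5.22 CPM in PBS_Vehicle and 43.5, 11.6 and 9.94 CPM in Bleo_Vehicle, the log2 change being 1.56 ± 0.52 (edgeR adjusted p = 0.123), and Heyl measured 25.8, 43.2 and 50.9 CPM against 119, 54.5 and 54.7 CPM (log2 change 0.89 ± 0.32, edgeR adjusted p = 0.157). For both, replicate 1 of Bleo_Vehicle was far above the others, and without it the changes were 0.75 for Jag1 and 0.48 for Heyl. Notch3 measured 3.49, 6.53 and 7.18 CPM against 15.8, 15.8 and 6.74 CPM (log2 change 1.16, edgeR adjusted p = 0.263). All 9 pericyte markers had UMIs in fibroblast nuclei, and their summed level was 122 to 219 CPM in Bleo_Vehicle against 82.1 to 112 CPM in PBS_Vehicle, while the 6 club markers summed to 302 to 891 against 39.6 to 297 CPM. Their part in these 3 genes was not tested. The clusters that make up the class also took other shares, since in Bleo_Vehicle cluster 9, led by Mfap4, made up 22.1% of the class, 174 of its nuclei being from replicate 1, more than in PBS_Vehicle, and cluster 3 made up 37.1% there and 49.6% in PBS_Vehicle. Within cluster 9, Heyl averaged 67.6 CPM in PBS_Vehicle and 52.3 CPM in Bleo_Vehicle, against 33.2 and 82.6 CPM in cluster 3 and 52.0 and 89.5 CPM in cluster 5. Jag1 averaged higher in Bleo_Vehicle in all 3 of these clusters, at 1.54 against 22.6, 1.11 against 7.26 and 7.72 against 31.7 CPM. The SD of Jag1 in Bleo_Vehicle was 10.6, 6.47 and 40.2 CPM in that order. In cluster 5 this SD exceeded the mean, and the highest library was at 78.1 CPM. In clusters 18 and 26 of the class Jag1 averaged lower in Bleo_Vehicle than in PBS_Vehicle. Cluster 18 had the highest Jag1 mean of the class's clusters, at 52.7 CPM, and averaged 32.4 CPM in Bleo_Vehicle. Its spread was wide, with an SD of 51.2 CPM in PBS_Vehicle and 28.2 CPM in Bleo_Vehicle. Cluster 26 had 36.1 CPM in 1 PBS_Vehicle library and averaged 34.2 CPM in 2 Bleo_Vehicle libraries.

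Without the filter on low counts, Notch3 and Heyl, both genes of mural cells, were called higher after bleomycin in classes where they were close to 0. In that setting the median log2 change over all genes lay beyond 0.1 in 35 of 60 combinations of class and comparison. With the filter it did so in 0 of 60. The calls below are given without the share of all genes called in that setting and are no result about the members. The Notch3 estimate was a log2 difference of 2.40 (edgeR adjusted p = 0.0186) in alveolar type I, 2.99 (edgeR adjusted p = 0.000988) in alveolar type II and 3.26 (edgeR adjusted p = 0.0107) in alveolar macrophage nuclei, and Heyl had 5.40 (edgeR adjusted p = 0.0237) in alveolar macrophages. In the same classes the pericyte markers summed to 12.5 to 16.2 CPM in Bleo_Vehicle against 6.03 to 8.02 CPM in PBS_Vehicle, 23.9 to 111 against 0 to 11.6 CPM and 27.6 to 91.5 against 7.40 to 22.0 CPM, in that order. Their part in the result was not tested.

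Of the members that set artery and vein apart, those tested in artery did not pass after bleomycin either. Hey1 and Dll1 did not pass the filter on low counts in artery and were not tested there. In artery, Dll4 was 219, 145 and 248 CPM in PBS_Vehicle and 250.4 and 144 CPM in Bleo_Vehicle (log2 change -0.22 ± 0.42, edgeR adjusted p = 0.983). In general capillary nuclei, Notch1 was 169, 140.1 and 132 CPM against 135, 97.3 and 111 CPM (log2 change -0.45 ± 0.22, edgeR adjusted p = 0.400) and for Dll1 it was -0.82 ± 0.47 (edgeR adjusted p = 0.510). These groups overlapped. Jag1 in artery was 157, 159.7 and 206 CPM against 22.8 and 118 CPM, without overlap (log2 change -0.88 ± 0.53, edgeR adjusted p = 0.855). In whole lung, the member with the smallest p was Heyl, at 13.3 ± 4.24 CPM in PBS_Vehicle and 20.2 ± 6.17 CPM in Bleo_Vehicle (n = 3 libraries each, log2 change 0.61 ± 0.27, edgeR adjusted p = 0.261).

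**Figure D3:**
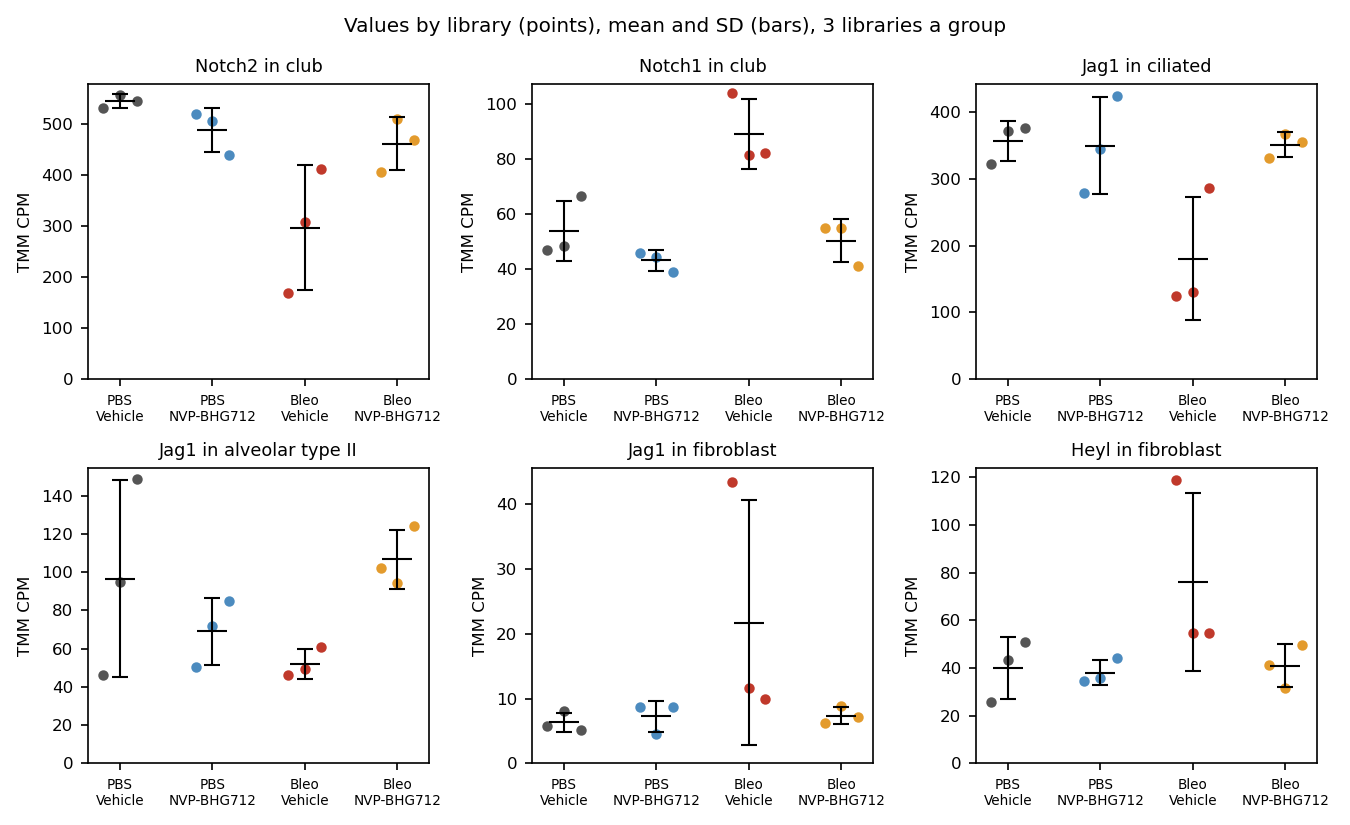
TMM-scaled CPM of the member and class pairs with the leading tests, each point a library, with the mean and SD of the 3 libraries per group. Bleo_Vehicle lies below PBS_Vehicle for Notch2 in club and Jag1 in ciliated nuclei and above it for Notch1 in club, while 1 Bleo_Vehicle point stands far above the rest for Jag1 and Heyl in fibroblasts.

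In the comparison of NVP-BHG712 with vehicle after bleomycin, no member passed either. The count was 0 of 10 in whole lung (all genes 5.51%) and 0 of 44 by class (all genes 4.40%) in edgeR, and DESeq2 also called none. With the unadjusted p under 0.05 it was 3 of 10 in whole lung (all genes 25.6%) and 8 of 44 by class (all genes 18.4%). The groups did not overlap in 5 of 10 in whole lung (all genes 32.9%) and in 11 of 44 by class (all genes 25.6%). The members again stood near the background.

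In whole lung, 4 members lay lower under the inhibitor without overlap. The groups overlapped for Notch2, Dll1, Jag2, Hey1 and Heyl. Hey1, for example, was 0, 3.41 and 5.01 CPM in Bleo_Vehicle and 3.56, 5.24 and 2.69 CPM in Bleo_NVP-BHG712. Notch3 was 35.1, 44.6 and 33.3 CPM in Bleo_Vehicle and 12.7, 25.6 and 12.9 CPM in Bleo_NVP-BHG712 (log2 change -1.12 ± 0.45, edgeR adjusted p = 0.147), and Dll4 was 10.9, 11.4 and 7.33 CPM against 5.34, 5.54 and 4.42 CPM (-0.94 ± 0.42, edgeR adjusted p = 0.188). Notch1 was 38.0, 40.6 and 35.6 CPM against 29.0, 32.8 and 29.4 CPM (-0.32, edgeR adjusted p = 0.355), and Notch4 was 11.2, 17.3 and 13.6 CPM against 5.04, 10.0 and 8.84 CPM (-0.80, edgeR adjusted p = 0.335). Jag1 lay higher, at 45.1 ± 3.33 against 33.0 ± 4.59 CPM (SD, n = 3 libraries each, log2 change 0.44, edgeR adjusted p = 0.155). None of these passed. Under stricter limits on nuclei, 500 UMIs or more and a mitochondrial share up to 1%, the changes were -0.65 for Notch3 (edgeR adjusted p = 0.470) and -0.21 for Dll4 (edgeR adjusted p = 0.842). The values for Dll4 within artery, 250.4 and 144 against 194 and 151 CPM, overlapped (0.01 ± 0.48, edgeR adjusted p = 1.000).

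By class, the leading tests were in part those named for bleomycin, with the same Bleo_Vehicle libraries now as the reference. Jag1 in alveolar type II and in club nuclei and Notch1 in alveolar type I nuclei were not named there. Jag1 in ciliated nuclei was 331, 367 and 355 CPM in Bleo_NVP-BHG712, above the 3 Bleo_Vehicle values (log2 change 0.85, edgeR adjusted p = 0.125), and passed without replicate 3 of Bleo_Vehicle (1.44, edgeR adjusted p = 0.000237). Jag1 in alveolar type II nuclei was 46.1, 49.2 and 61.1 CPM in Bleo_Vehicle and 102, 94.4 and 124 CPM in Bleo_NVP-BHG712 (0.99, edgeR adjusted p = 0.107), and passed without replicate 1 of PBS_Vehicle (1.01, edgeR adjusted p = 0.0427). In alveolar type II nuclei the 6 club markers summed to 505 to 1226 CPM in Bleo_Vehicle and 142 to 302 CPM in Bleo_NVP-BHG712, and the 8 alveolar macrophage markers to 73.1 to 147 and 0 to 11.6 CPM, and their part in the Jag1 values was not tested. Heyl (41.2, 31.7 and 49.7 CPM) and Jag1 (6.17 to 8.78 CPM) in fibroblasts were below all 3 Bleo_Vehicle values, with changes of -0.83 (edgeR adjusted p = 0.150) and -1.31 (edgeR adjusted p = 0.164). Notch1 in alveolar type I nuclei, a class near 0 for this gene, was 5.72, 6.24 and 7.60 CPM against 2.64, 1.90 and 2.83 CPM (-1.44, edgeR adjusted p = 0.122), and the 7 general capillary markers in those nuclei summed to 127 to 139 CPM against 42.0 to 66.7 CPM, a part that was not tested. Different clusters held these nuclei, since cluster 1 took 50.6% of the class in Bleo_Vehicle and 86.9% in Bleo_NVP-BHG712, cluster 11 took 23.6% and 11.9%, and cluster 13 took 22.4% and 0.424%. Within cluster 1 Notch1 averaged 6.30 and 1.07 CPM, and within cluster 11 it averaged 8.24 and 11.1 CPM. In club nuclei the changes were 0.52 for Notch2 (edgeR adjusted p = 0.260), -0.74 for Notch1 (edgeR adjusted p = 0.224) and 0.60 for Jag1 (edgeR adjusted p = 0.295).

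Pericytes, the class with the highest Notch3 level, were examined with a lower minimum of 5 nuclei per library, chosen after seeing the data so that all 12 libraries entered. Notch3 measured 1611, 1951 and 2053 CPM in PBS_Vehicle, 1888, 2155 and 1023 CPM in PBS_NVP-BHG712, 2399, 1528 and 1904 CPM in Bleo_Vehicle and 1177, 1745 and 2014 CPM in Bleo_NVP-BHG712. The libraries added in this way were shallow, and their values rest on few UMIs. Replicate 3 of PBS_NVP-BHG712 held 6 pericytes, where 3 UMIs equal 776 CPM before TMM scaling. Replicate 3 of PBS_Vehicle held 11 (327 CPM), and replicates 1 and 3 of Bleo_NVP-BHG712 held 9 (212 CPM) and 18 (164 CPM). All 4 groups overlapped, with log2 changes of 0.06 ± 0.34 for bleomycin under vehicle (edgeR adjusted p = 0.998) and -0.20 ± 0.35 for the inhibitor after bleomycin (edgeR adjusted p = 0.930). The share of pericytes among the nuclei used was 1.90% ± 1.09 in PBS_Vehicle, 1.81% ± 1.27 in PBS_NVP-BHG712, 1.85% ± 0.640 in Bleo_Vehicle and 1.35% ± 0.719 in Bleo_NVP-BHG712 (SD, n = 3 each), so the group means differed by less than the spread within PBS_Vehicle or PBS_NVP-BHG712.

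**Figure D4:**
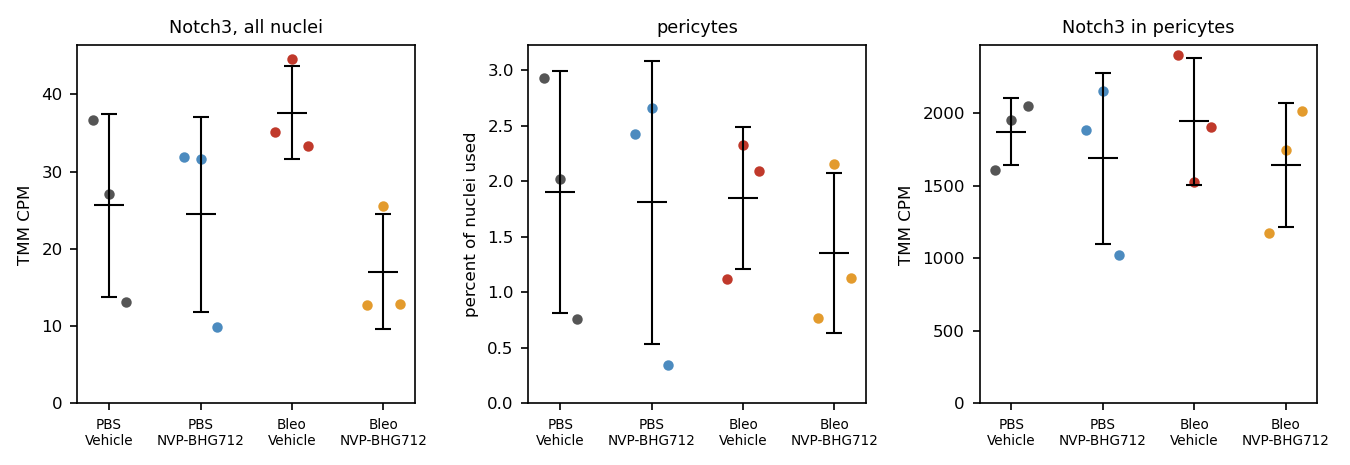
Notch3 in all nuclei (TMM-scaled CPM), the share of pericytes among nuclei used (percent) and Notch3 in pericytes (TMM-scaled CPM, libraries with at least 5 pericytes), each point a library with group mean and SD. Whole lung Notch3 is lower in Bleo_NVP-BHG712 than in Bleo_Vehicle, whereas the pericyte levels of the 4 groups overlap.

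In lungs given PBS, NVP-BHG712 was compared with vehicle in the same way. The edgeR count was 0 of 10 in whole lung and 0 of 44 by class, where all genes gave 0% in both, and DESeq2 called no member. The unadjusted p was under 0.05 for 0 of 10 in whole lung (all genes 0.298%) and for 1 of 44 by class (all genes 0.949%), and the groups did not overlap in 0 of 10 (all genes 3.07%) and 3 of 44 (all genes 5.90%). That 1 was Jag2 in ciliated nuclei, at 47.7, 49.0 and 31.8 CPM in PBS_Vehicle and 79.4, 81.2 and 84.8 CPM in PBS_NVP-BHG712 (log2 change 0.87, edgeR adjusted p = 1.000).

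Between bleomycin and PBS under the inhibitor, the edgeR count was 0 of 10 and 0 of 44 (all genes 0% in both), with none called by DESeq2. The unadjusted p was under 0.05 for 0 of 10 (all genes 2.75%) and 3 of 44 (all genes 3.23%), and the groups did not overlap in 2 of 10 and 5 of 44 (all genes 11.0% in both). The 3 were lower after bleomycin and all in capillaries. Dll4 in aerocytes was 64.2, 32.1 and 36.6 CPM in PBS_NVP-BHG712 and 26.9, 15.7 and 13.2 CPM in Bleo_NVP-BHG712, without overlap (log2 change -1.51, edgeR adjusted p = 0.930). The others were Notch4 (153, 89.4 and 89.3 against 52.8, 71.1 and 76.5 CPM, -0.76) and Notch1 (169.8, 132 and 162 against 145, 91.2 and 111 CPM, -0.49) in general capillary nuclei, the first without overlap.

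The inhibitor's change after bleomycin was also compared with its change after PBS, as an interaction in the same model. It passed for 0 of 10 members in whole lung (all genes 0.298%) and 0 of 44 by class (all genes 0.457%), and DESeq2 called none. The unadjusted p was under 0.05 for 0 of 10 (all genes 14.3%) and for 3 of 44 (all genes 10.8%). The 3 were Jag1 in alveolar type II (1.43, edgeR adjusted p = 0.285) and in ciliated nuclei (0.89) and Notch2 in club nuclei (0.67). Jag1 in ciliated nuclei passed without replicate 3 of Bleo_Vehicle (1.50, edgeR adjusted p = 0.00228).

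The rest of the pathway was taken from a list of 40 genes, from the enzymes that modify and cut the receptors to the nuclear partners, inhibitors and other targets. In whole lung 35 of them could be tested and by class there were 200 tests. Bleomycin under vehicle gave 0 calls of 35 in whole lung (all genes 2.44%), with 6 at an unadjusted p under 0.05 (all genes 18.6%). DESeq2 gave 1 call there. By class, edgeR called 2 higher (all genes 2.57%) and 0 lower (all genes 0.936%) of 200. Both higher calls were in alveolar macrophages, outside the rule for naming, and were chosen after their values were seen. Rbpj, the DNA binding partner of the cut receptor, was 102, 135 and 117 CPM in PBS_Vehicle and 439, 279 and 218 CPM in Bleo_Vehicle (log2 change 1.41 ± 0.26, edgeR adjusted p = 0.00212), and Maml2, a coactivator of the complex, was 722, 608 and 597 CPM against 882, 1332 and 1267 CPM (0.85, edgeR adjusted p = 0.00382).

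With the inhibitor after bleomycin, 2 of 200 were higher (all genes 1.33%) and 4 lower (all genes 3.07%) by class. In whole lung 1 of 35 passed (all genes 5.51%). Maml2 rose in fibroblasts, from 1243, 1386 and 1532 CPM to 2521, 2281 and 2341 CPM (0.78, edgeR adjusted p = 0.0413), and fell in alveolar macrophages (-0.76, edgeR adjusted p = 0.0121). Numb, an inhibitor of Notch signalling, rose in general capillary nuclei from 1377, 1046 and 1596 CPM to 2272, 2599 and 1974 CPM (0.77, edgeR adjusted p = 0.0309). Rbpj in alveolar macrophages fell to 101, 58.9 and 111 CPM (-1.79, edgeR adjusted p = 0.00137). Apart from Rbpj, each of the calls named here ended when any 1 Bleo_NVP-BHG712 library or replicate 2 of Bleo_Vehicle was left out. The Maml2 call in fibroblasts ended also without replicate 1 of Bleo_Vehicle, replicate 2 of PBS_Vehicle or replicate 2 or 3 of PBS_NVP-BHG712. With stricter limits on nuclei, 500 UMIs or more and a mitochondrial share up to 1%, the Maml2 call in fibroblasts and the Numb call both ended. The Maml2 and Numb calls named here also ended when only the libraries compared were fitted. Over all alternatives the edgeR or DESeq2 adjusted p reached 0.135 for Maml2 in fibroblasts and 0.185 for Numb.

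The Rbpj and Maml2 calls in alveolar macrophages came with markers of other cells. The 8 interstitial macrophage or monocyte markers summed to 204 to 388 CPM in alveolar macrophage nuclei of Bleo_Vehicle against 55.1 to 91.3 CPM in PBS_Vehicle, and the 8 alveolar type II markers to 471 to 1706 against 202 to 332 CPM, none of the 8 in either list being at 0. Their part in the result was not tested. The run cannot be told apart from the groups in any of the Rbpj, Maml2 and Numb calls. With the nuclei clustered without batch correction the Rbpj change was 0.32 (edgeR adjusted p = 0.615) after bleomycin and -0.80 (edgeR adjusted p = 0.0842) under the inhibitor. Under stricter limits on nuclei, 500 UMIs or more and a mitochondrial share up to 1%, it was 0.81 (edgeR adjusted p = 0.124) and -1.35 (edgeR adjusted p = 0.0250).

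**Figure D5:**
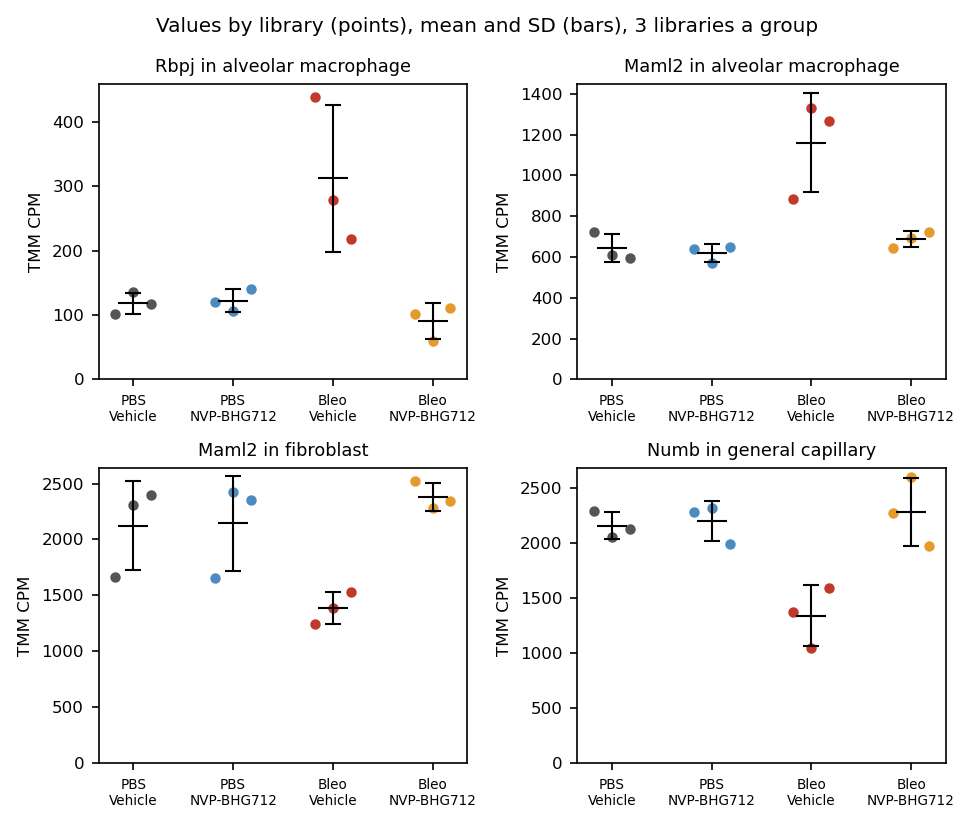
TMM-scaled CPM of Rbpj, Maml2 and Numb in the classes where they were called, each point a library, with the mean and SD of 3 libraries per group. The Bleo_Vehicle points lie above the other 3 groups for Rbpj and below them for Numb, above for Maml2 in alveolar macrophages and below in fibroblasts.

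Under PBS the inhibitor gave 0 calls of 35 and 0 of 200 (all genes 0% in both). The unadjusted p was under 0.05 for 0 and 1 of them (all genes 0.298% and 0.949%). Bleomycin under the inhibitor gave 0 of 35 and 0 of 200 (all genes 0% in both), with 0 and 7 at an unadjusted p under 0.05 (all genes 2.75% and 3.23%). The interaction gave 0 of 35 in whole lung (all genes 0.298%), with 2 at an unadjusted p under 0.05 (all genes 14.3%). By class it gave 1 of 200 (all genes 0.457%), namely Rbpj in alveolar macrophages (-1.86, edgeR adjusted p = 0.0448). A replicate block lowered this count to 0 of 200 (Rbpj -1.83, edgeR adjusted p = 0.0538). The median log2 change over the 200 class tests was -0.03 for bleomycin under vehicle and -0.04 for the inhibitor after bleomycin, close to that of all genes tested, at -0.01 in both.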

How the data were processed

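Nuclei from 12 mouse lungs were sequenced with 10x Genomics 3′ chemistry (v3.1). The deposited counts are raw UMI counts per gene and barcode that the authors made with Cell Ranger (7.2.0 per the file headers, 7.0 per the labels) on mm10, before their own filtering in Seurat. Here nuclei with 200 to 6000 genes and at most 5% mitochondrial UMIs were kept, and doublets scored by the scrublet method in scanpy 1.11.5 were removed at 0.8% per 1000 nuclei, 2708 in all (5.72%). Counts were normalised, 2000 variable genes and 30 components were taken, libraries were aligned by Harmony, and nuclei were clustered by Leiden (20 neighbours, resolution 1). A marker list could name a cluster when at least 3 of its markers had a log2 fold above 1 over the other nuclei. Among such lists, the one with the highest mean log2 fold was taken. A cluster stayed unnamed where its leading genes marked another type, the folds were weak or no own marker was among the leading genes. The Hhip Aspn Lgr5 cluster was kept without a cell type name, a choice made after its values were seen. Its leading genes were Kctd16, Hhip, Pappa2, Csmd1 and Pde10a.

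UMIs were summed per class and library and fitted in edgeR 4.0.16 (TMM, filterByExpr, robust quasi-likelihood, a mean per group, all 12 libraries in 1 fit). Libraries with under 20 nuclei of a class were left out, and classes with at least 2 libraries in each group were tested. The test was checked on simulated counts. DESeq2 1.42.0 and the other alternatives described in the closing section were also run, of which 2 (a minimum of 5 nuclei, mitochondrial genes left out) were added after seeing the data. Labels name 1 mouse per library.

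The members and lists were chosen with earlier results of these data known. The 10 members are named whatever their values, other pathway genes where called in whole lung or in a vessel, mural or fibroblast class (at most 3 in each direction), and for each member the 2 genes of at least 10 CPM with the most similar class pattern; some genes that these rules name are not reported here. Same-numbered libraries of the 2 PBS groups deviated together (correlations 0.74, 0.392 and 0.505), and the fit with a replicate block gave 0 member calls there too. Promoters came from RefSeq (GRCm38.p6) and gene positions from GENCODE.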

Additional observations from a re-analysis of the deposited data

Results flagged for a closer look

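Rbpj in alveolar macrophages differed between the bleomycin and the PBS lungs in its response to NVP-BHG712. The interaction term was -1.86 on the log2 scale (edgeR adjusted p = 0.0448), with 102, 135 and 117 CPM in PBS_Vehicle, 119.7, 106 and 141 CPM in PBS_NVP-BHG712, 439, 279 and 218 CPM in Bleo_Vehicle and 101, 58.9 and 111 CPM in Bleo_NVP-BHG712. The 3 Bleo_Vehicle libraries were above all 9 others. With a replicate block the term did not pass (-1.83, edgeR adjusted p = 0.0538). It was -0.84 (edgeR adjusted p = 0.342) without batch correction and -1.34 (edgeR adjusted p = 0.175) with the stricter nuclei, and it passed without replicate 1 or replicate 3 of Bleo_Vehicle and did not pass without any other single library (edgeR adjusted p = 0.0526 to 0.132). The run cannot be told apart from the groups here. Other markers that moved with the Bleo_Vehicle libraries are given beside the Rbpj values above.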

How the results depend on the processing

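Calls of members appeared in some alternatives, against 0 in the fits reported. By class, bleomycin under vehicle gave 6 calls without a filter on low counts, 1 with a replicate block, 1 with DESeq2, 1 with doublets kept, and 0 to 3 with 1 library left out. The inhibitor after bleomycin gave 4, 2 (replicate block), 0 (DESeq2), 2 (doublets kept) and 0 to 2, and the interaction 1 without a filter and 0 to 1 with 1 library left out. In whole lung the replicate block gave 1 call for the inhibitor after bleomycin (Notch3, -1.19, adjusted p = 0.0411) and changed no other whole lung member call. Leaving out replicate 3 of Bleo_Vehicle gave the 3, 2 and 1. Replicate numbers did not mark pairs in the comparisons across bleomycin or the bleomycin groups.

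For the 40 other pathway genes by class, bleomycin under vehicle gave 7 calls without the filter, 6 with the replicate block, 6 with DESeq2, 1 with only the libraries compared, 1 with stricter nuclei and 1 without batch correction, and 2 to 14 with 1 library left out. For the inhibitor after bleomycin the counts were 10 (replicate block), 2 (only the libraries compared), 2 (stricter nuclei) and 1 to 15. The interaction gave 2 without the filter and 2 with doublets kept, 0 with the replicate block, at doubled resolution, with pathway genes among the variable genes or with mitochondrial genes left out, and 0 to 6. In whole lung, bleomycin under vehicle gave 1 (replicate block), 1 (DESeq2) and 0 to 1, the inhibitor after bleomycin 2 (no filter), 3 (replicate block), 3 (DESeq2) and 0 to 3, and the interaction 0 to 1. The highest counts came without replicate 3 of Bleo_Vehicle, and the cause was not tested. These counts and those of the members above are given without the share over all genes under each alternative. They are no result about the genes listed.

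The artery minus vein median of Notch2 became -0.02 with doublets kept, -0.48 without batch correction and -1.16 with stricter nuclei, and that of Jag1 became -0.11 without any 1 of 5 libraries (replicates 1 and 3 of PBS_Vehicle, 2 of PBS_NVP-BHG712, 3 of Bleo_Vehicle and 3 of Bleo_NVP-BHG712), within a range of -0.11 to 0.51 over libraries left out.  Depth limits the rarer classes, with 915 pericyte and 273 smooth muscle nuclei over 12 libraries.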
